A study of Mus musculus with 68 samples.

Results

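The transcriptome of wild-type (WT) CFU-E was compared with that of WT BFU-E in 6 RNA-seq libraries, 3 of each population, out of 68 libraries in the whole series. All genes were members of the comparison: the count table held 24059 gene symbols, of which 10826 had enough reads to be tested. Both populations were erythroid progenitors of the mouse, sorted from bone marrow with no treatment named in the labels, and belonged to a set of 30 libraries in which WT and GS-KO cells were collected at 5 stages. Mouse strain, age, the allele or driver behind GS-KO, the sorting markers and whether the 3 libraries of a group came from separate mice were not stated in the sources used here. The p-values below therefore measure the spread between these libraries, which may be technical. Counts are expressed as CPM, scaled to a library's total of 1000000, and fold changes as log2 of CFU-E over BFU-E after TMM scaling, which corrects for differences in RNA composition between libraries.

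The burst-forming unit-erythroid (BFU-E) is the earliest progenitor committed to the red cell lineage. It divides slowly, responds to stem cell factor through KIT and to glucocorticoids, and still carries transcripts of the multipotent and myeloid cells it came from. The colony-forming unit-erythroid (CFU-E) follows it, depends on erythropoietin, divides fast and stands just before the first recognisable erythroblast, in which hemoglobin synthesis begins. The transcription factors GATA2 and GATA1 bind the same DNA motif, and the exchange of one for the other on chromatin is a textbook feature of this transition. The comparison addresses which genes change between those stages in unperturbed marrow.

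Total counts ran from 6293029 to 9806903 in BFU-E and from 7114240 to 8335034 in CFU-E, and 13851 to 14250 and 13089 to 13353 genes had at least 1 count. Replicate libraries differed from each other by 1.30 to 1.88 times the variance of pure counting noise (chi-square per degree of freedom), so they were close to each other. An excess of this size cannot tell separate mice from repeated preparation or sequencing of 1 RNA sample. Each library was used as 1 replicate, as labelled. The summed level of 7 BFU-E markers was 4208 to 4243 CPM in BFU-E and 1851 to 1908 CPM in CFU-E, and that of 8 CFU-E markers was 4473 to 4570 and 7233 to 7264 CPM, in the direction of the labels. Gata1 and Epor belonged to both sets. Most of the BFU-E sum came from Myb (means of 2716 and 1075 CPM) and Kit (908 and 483 CPM). In that set Epor went the other way (57.8 and 85.5 CPM) and Gata1 was almost level (201 and 196 CPM). All 6 libraries carried the Y-linked transcript Ddx3y (98.8 to 112 CPM). They also carried the X-linked transcript Xist, at 3.64 to 6.04 CPM in BFU-E and 4.78 to 5.66 CPM in CFU-E. The defining markers of other cell types that differed most were those of stem cells (5 markers summing to 56.0 to 59.0 CPM in BFU-E and 1.56 to 2.53 CPM in CFU-E), T and NK cells (5 markers, 14.4 to 15.8 and 0.360 to 0.422 CPM) and mast cells and basophils (7 markers, 9.69 to 13.1 and 0.480 to 1.2 CPM). These sums rest on part of each set. Most of the stem cell sum in BFU-E was Slamf1 (mean of 49.8 CPM). Procr of the stem cell set, Cd3e and Ncr1 of the T and NK set, and Tpsb2 and Cma1 of the mast cell set had no counts in BFU-E. Megakaryocyte markers had the highest sum (8 markers, 84.5 to 86.4 and 37.7 to 40 CPM). The 8 neutrophil markers summed to 28.5 to 37.8 CPM in BFU-E and 24.7 to 29.5 CPM in CFU-E, 7 monocyte and macrophage markers to 5.81 to 6.91 and 2.25 to 3.60 CPM, and 5 B cell markers to at most 3.52 CPM in any of the 6 libraries. In bulk RNA, fewer cells of a type and less RNA per cell cannot be told apart.

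Large decreases outnumbered large increases. At an adjusted p below 0.05 in edgeR's quasi-likelihood test, 7632 genes (70.5% of those tested) differed, 3737 of them (34.5%) higher and 3895 (36.0%) lower in CFU-E, with a median log2 fold change of -0.03 over all genes tested. With library totals in place of TMM scaling that median was -0.13, and the split was 2865 higher against 4778 lower. Because the replicates were so close, most of these calls are small changes. The counts given for gene lists below are to be read beside the 34.5% higher and 36.0% lower over all genes tested. A stricter test for changes of more than 2-fold (glmTreat) called 217 genes higher (2.0%) and 953 lower (8.80%). The 953 genes carried 44577 CPM in BFU-E and 12341 CPM in CFU-E, while the 217 genes went from 10127 to 26472 CPM. The 3 values of one population lay wholly above the 3 of the other for 71.9% of genes tested.

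**Figure D1:**
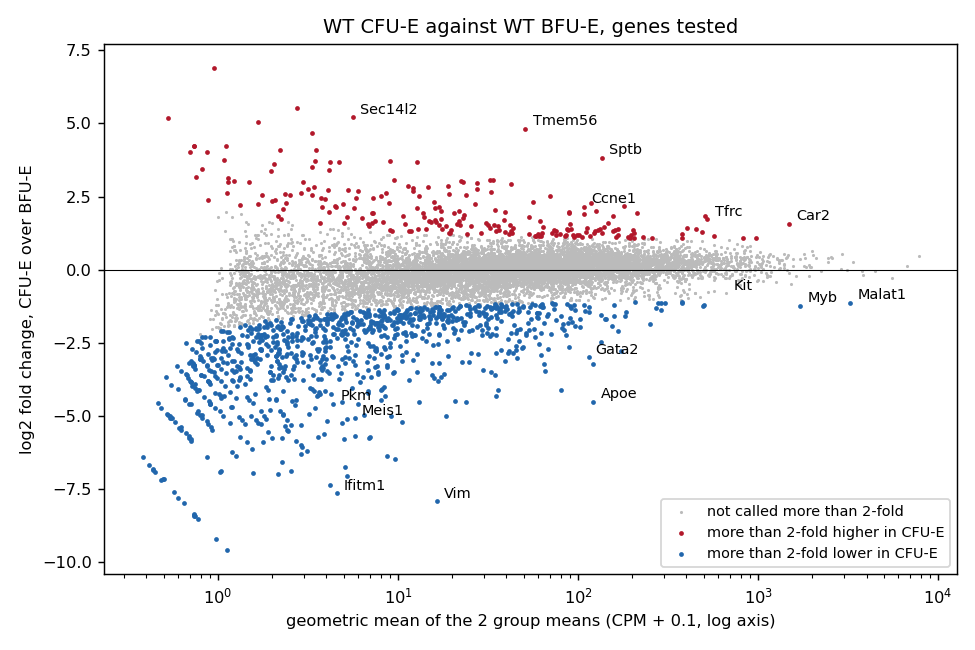
Log2 fold change of CFU-E over BFU-E (y axis) against the geometric mean of the 2 group means in CPM, each plus 0.1 (x axis, log scale) for the 10826 genes tested. Red points are the 217 genes called more than 2-fold higher and blue points the 953 called more than 2-fold lower; the blue points reach further from 0 than the red ones.

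Among genes that reached 20 CPM in either population, Sec14l2 and Tmem56 rose most. Sec14l2, which encodes a lipid-binding protein, was at 0.953, 0.364 and 1.33 CPM in the BFU-E libraries and at 32.6, 32.9 and 29.9 CPM in the CFU-E libraries, a log2 fold change of 5.22 ± 0.19 (SE, n = 3 and 3). Sptb, which encodes the erythroid beta chain of spectrin, the main protein of the membrane skeleton, rose from 39.2, 35.4 and 37.3 CPM to 477, 503 and 482 CPM, or 14.1-fold. In both genes every CFU-E library lay far above every BFU-E library. Tmem56 (4.83 ± 0.06), Trim10, an erythroid ubiquitin ligase (3.70 ± 0.15), Sh3tc2 (3.67 ± 0.13), the calponin gene Cnn3 (3.08 ± 0.08), Sh2d4a (3.08 ± 0.09), the skeletal protein dematin gene Dmtn (3.05 ± 0.15), Pkhd1l1 (3.04 ± 0.10), the fatty acid activating enzyme Acsl6 (3.0 ± 0.10), the membrane protease gene Hpn (2.98 ± 0.09) and the desaturase Fads3 (2.94 ± 0.07) completed the 12 highest. Measured as a gain in CPM, which also scales with transcript length, Car2, Hist2h2bb, Cd24a, Tfrc, Fth1 and Sptb gained most. Car2, a carbonic anhydrase, went from 902 ± 7.6 to 2472 ± 38 CPM (SD, n = 3 each), and Cd24a, a surface antigen of early erythroblasts, from 279 ± 11 to 923 ± 13 CPM.

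The steepest falls among genes at 20 CPM or more reached the level of a few reads per library. Vim, which encodes the intermediate filament vimentin, was at 258, 266 and 244 CPM in BFU-E and at 1.08, 0.843 and 0.96 CPM in CFU-E (log2 fold change -7.92 ± 0.10). The other 11 of the 12 lowest were Ifitm1, an interferon-induced membrane protein (-7.65 ± 0.21), the GTPase regulators and GTPases Rab37 (-7.37 ± 0.22), Rin3 (-7.07 ± 0.19) and Rab44 (-6.07 ± 0.27), the sterol exporter gene Abcg1 (-6.88 ± 0.29), the immunoglobulin joining chain gene Igj (-6.75 ± 0.20), Plac8 (-6.49 ± 0.14), the actin-severing protein gene Scin (-6.37 ± 0.16), Med12l (-6.31 ± 0.27), the adhesion receptor gene Gpr97 (-6.21 ± 0.25) and Nynrin (-5.98 ± 0.27). In CFU-E these 12 genes had from 4 counts (Abcg1) to 23 counts (Vim) over the 3 libraries together. At so few counts the standard errors, which were derived from the test statistic, understate the counting noise. In CPM the largest losses were of the nuclear noncoding RNA Malat1 (4986 ± 54 to 2120 ± 22 CPM), Myb, the lipoprotein gene Apoe (604 ± 8.0 to 24.3 ± 2.1 CPM), the cross-linker genes Flna and Plec, and Zfp36l2, an RNA-binding protein that promotes mRNA decay and BFU-E self-renewal (792 ± 9.3 to 319 ± 12 CPM). Apoe fell by 4.52 ± 0.04 on the log2 scale, with no overlap between the groups.

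Transcription factors of stem and progenitor cells fell almost as a group, whereas most erythroid factors moved little. Of 29 tested progenitor factors 27 fell and 2 rose, 19 fell by more than 2-fold, and the median log2 fold change was -2.45. Gata2, the GATA factor of stem and early progenitor cells, was at 336, 338 and 330 CPM in BFU-E and at 37.9, 38.8 and 40.1 CPM in CFU-E, a log2 fold change of -3.0 ± 0.04. Myb, which maintains progenitor proliferation, went from 2694, 2737 and 2717 CPM to 1058, 1089 and 1078 CPM (-1.23 ± 0.02). The groups were well separated in both genes. The stem cell homeobox cofactor Meis1 (-5.08 ± 0.19), the myeloid ETS factor gene Spi1 (-4.14 ± 0.32), the megakaryocytic ETS factor gene Fli1 (-3.78 ± 0.14) and the bone and T cell factor gene Runx2 (-4.20 ± 0.25) fell further than Myb, while Runx1 (-0.66 ± 0.05) and Myc (-0.92 ± 0.03) fell less. The 2 that rose were the lymphoid regulator Ikzf1 (0.18 ± 0.02) and the myeloid factor gene Cebpb (0.82 ± 0.20), the latter from 4.62 to 7.48 CPM.

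Among 26 erythroid factors and their partners 15 rose and 7 fell, with a median of 0.18. The count was 13 and 9 with library totals. Gata1, which drives erythroid gene expression, was at 204, 200 and 200 CPM in BFU-E and 189, 199 and 199 CPM in CFU-E, and its log2 fold change of 0.07 ± 0.03 did not pass the test (adjusted p = 0.084). The lowest BFU-E library lay just above the highest CFU-E library in CPM, while the TMM scale put CFU-E slightly higher, and the test was passed without CFU-E library 1 (0.10, adjusted p = 0.027). Klf1, the factor behind adult globin and membrane genes, went from 242, 246 and 242 CPM to 300, 296 and 301 CPM (0.40 ± 0.03), and Tal1, the partner of GATA1 in a complex with LMO2 and LDB1, rose by 0.28 ± 0.03. The other members of that complex differed from Tal1: Lmo2 had a log2 fold change of -0.06 ± 0.03, which did not pass the test but did with library totals (-0.16, adjusted p = 3.8e-07), and Ldb1 fell by 0.40 ± 0.03. The members called more than 2-fold higher were Trim10, a ubiquitin ligase counted in this list (3.70 ± 0.15), and E2f4, which is required for erythroid proliferation (1.09 ± 0.03). Nfe2, a factor shared with megakaryocytes, was the one called more than 2-fold lower (-1.37 ± 0.05). Cbfa2t3, a corepressor in the TAL1 complex (-0.85 ± 0.03), Foxo3 (-0.67 ± 0.04) and the glucocorticoid receptor gene Nr3c1 (-0.62 ± 0.03) also fell.

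**Figure D2:**
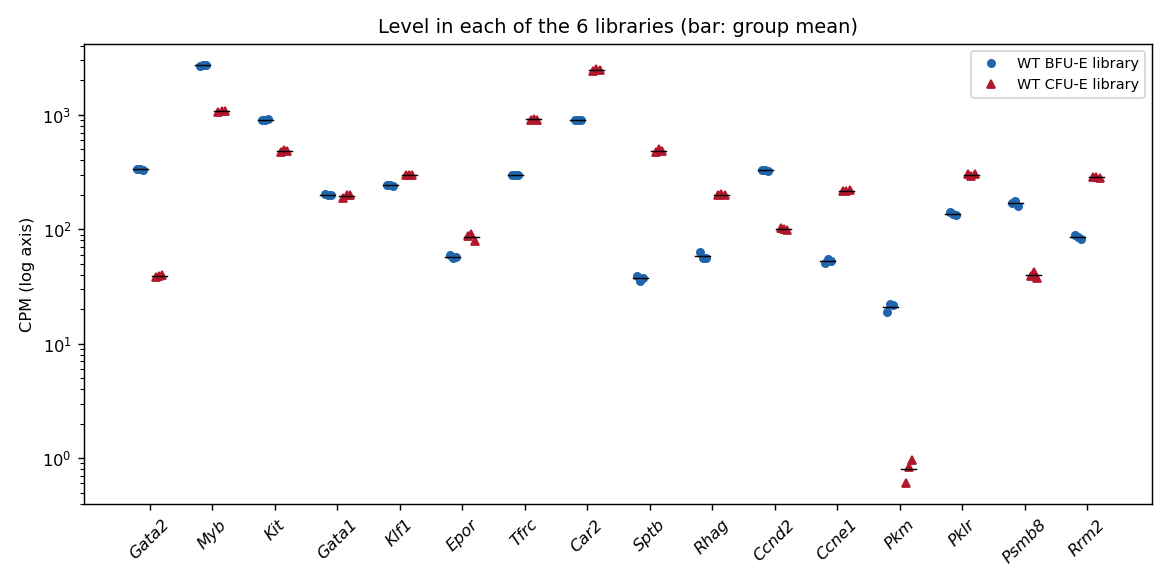
Level in CPM (y axis, log scale) of 16 genes in each of the 3 WT BFU-E libraries (blue circles) and 3 WT CFU-E libraries (red triangles), with black bars at the group means. Gata2 drops from 335 to 38.9 CPM and Sptb climbs from 37.3 to 487 CPM, whereas the points for Gata1, with means of 201 and 196 CPM, lie close together.

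Because the GATA motif is shared by both factors, the 250 bases before the transcription start (RefSeq, GRCm38.p6, the assembly also named mm10) were searched for the hexamers AGATAA and TGATAA on either strand. A promoter was matched for 8192 of the 10826 genes tested. The motif was found in 9.275% of promoters of genes tested, in 18.22% of those of genes called more than 2-fold higher and in 10.68% of those called more than 2-fold lower, against 16.6% of all promoters in the reference table. It was present in 9 of 29 promoters of the membrane list (31.03%), 9 of 37 of the erythroid factor list (24.32%) and 3 of 23 of the heme list (13.04%). A match describes the letters in this window and not binding. The 5 promoters below are shown because they belong to members of the erythroid factor, heme and membrane lists that rose, with the matched letters (here all on the reverse strand) in capitals. Trim10 lies at chr17:36869324-36869573 (+), Cpox at chr16:58669958-58670207 (+), Rhag at chr17:40810899-40811148 (+), Ermap at chr4:119189996-119190245 (-) and Klf1 at chr8:84901732-84901981 (+).
Trim10: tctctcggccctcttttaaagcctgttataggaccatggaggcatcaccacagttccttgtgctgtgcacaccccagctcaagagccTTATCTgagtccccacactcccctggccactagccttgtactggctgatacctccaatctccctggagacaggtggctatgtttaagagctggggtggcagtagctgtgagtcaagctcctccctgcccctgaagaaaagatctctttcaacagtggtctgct
Cpox: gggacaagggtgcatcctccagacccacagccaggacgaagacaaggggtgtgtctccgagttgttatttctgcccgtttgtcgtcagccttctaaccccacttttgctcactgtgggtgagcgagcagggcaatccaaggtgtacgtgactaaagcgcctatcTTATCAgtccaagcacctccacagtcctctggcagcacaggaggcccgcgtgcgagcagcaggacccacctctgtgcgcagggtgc
Rhag: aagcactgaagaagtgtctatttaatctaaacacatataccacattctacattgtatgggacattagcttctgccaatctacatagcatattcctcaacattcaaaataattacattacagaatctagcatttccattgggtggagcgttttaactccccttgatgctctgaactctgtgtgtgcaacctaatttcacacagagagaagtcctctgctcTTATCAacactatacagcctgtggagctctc
Ermap: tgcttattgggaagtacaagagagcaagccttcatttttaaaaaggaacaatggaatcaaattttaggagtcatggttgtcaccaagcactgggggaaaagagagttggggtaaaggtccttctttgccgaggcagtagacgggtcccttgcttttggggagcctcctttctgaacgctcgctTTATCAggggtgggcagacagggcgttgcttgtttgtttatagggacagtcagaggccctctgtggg
Klf1: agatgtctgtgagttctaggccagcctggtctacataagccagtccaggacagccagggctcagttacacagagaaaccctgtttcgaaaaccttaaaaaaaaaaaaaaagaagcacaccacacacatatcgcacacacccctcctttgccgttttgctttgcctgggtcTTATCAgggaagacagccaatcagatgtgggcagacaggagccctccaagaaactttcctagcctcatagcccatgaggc

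Most cytokine receptor genes fell, and that of the erythropoietin receptor rose. Of 25 tested cytokine receptors 22 fell and 2 rose, 10 of them fell by more than 2-fold, and the median was -1.01. Epor, which encodes the erythropoietin receptor, was at 59.3, 56.5 and 57.6 CPM in BFU-E and at 86.9, 91.2 and 78.3 CPM in CFU-E (0.67 ± 0.06). The other riser was Il1r1, a receptor of interleukin 1, at 1.89 and 4.16 CPM. Kit, which encodes the stem cell factor receptor, fell from 907, 900 and 917 CPM to 478, 490 and 482 CPM (-0.80 ± 0.02), a clear separation of the libraries. The transforming growth factor beta receptor genes Tgfbr2 (-2.0 ± 0.09), Tgfbr3 (-1.46 ± 0.04) and Tgfbr1 (-0.72 ± 0.10) fell together. The tumour necrosis factor receptor gene Tnfrsf1a (-3.13 ± 0.20), the interleukin 4 receptor gene Il4ra (-2.49 ± 0.34) and the chemokine receptor gene Cxcr4, which holds progenitors in the marrow (-1.25 ± 0.10), also fell. The landmark Csf2rb had too few reads to be tested (0.493 CPM in BFU-E).

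Genes of signalling proteins inside the cell fell more often than they rose. Of 35 mediators 24 fell and 7 rose, with a median of -0.37, and with library totals 26 fell and 3 rose. Those that fell by more than 2-fold included the kinase genes Syk (151 to 24.1 CPM, -2.56 ± 0.06) and Jak3 (-2.01 ± 0.11), the phospholipase gene Plcg2 (-2.88 ± 0.14) and the exchange factor gene Vav1 (178 to 47.9 CPM, -1.79 ± 0.05). Jak2, the kinase bound to the erythropoietin receptor, fell by 0.17 ± 0.03, and Stat5a, the factor it activates, by 0.12 ± 0.03. The adaptor gene Gab1 was the 1 member called more than 2-fold higher (20.4 to 51.4 CPM, 1.43 ± 0.09), and Hras rose (0.72 ± 0.06). Of 25 feedback inhibitors of these pathways 16 fell and 2 rose, among them Dusp6, a phosphatase of ERK kinases (-2.0 ± 0.17), and Cish, an inhibitor of STAT5 signalling (-2.95 ± 0.32). The 9 tested erythropoietin and STAT5 targets were split, with 6 lower and 2 higher. Tfrc rose whereas the kinase genes Pim1 and Pim3 fell by 0.34 ± 0.11 and 0.64 ± 0.14.

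The ETS heptamer AGGAAGT, searched on both strands of the same windows because Spi1, Fli1 and other ETS genes fell, was found in 7.249% of promoters of genes tested. The share was 11.39% in genes called more than 2-fold lower and 3.738% in genes called more than 2-fold higher. The windows of 2 of the mediators that fell are shown with the matched letters in capitals: Vav1 at chr17:57278850-57279099 (+) and Stat3 at chr11:100939541-100939790 (-).
Vav1: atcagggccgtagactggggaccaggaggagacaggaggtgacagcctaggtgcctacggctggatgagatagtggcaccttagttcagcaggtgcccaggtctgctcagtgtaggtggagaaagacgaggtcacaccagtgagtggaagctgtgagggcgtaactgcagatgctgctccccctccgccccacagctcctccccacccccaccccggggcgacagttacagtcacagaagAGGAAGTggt
Stat3: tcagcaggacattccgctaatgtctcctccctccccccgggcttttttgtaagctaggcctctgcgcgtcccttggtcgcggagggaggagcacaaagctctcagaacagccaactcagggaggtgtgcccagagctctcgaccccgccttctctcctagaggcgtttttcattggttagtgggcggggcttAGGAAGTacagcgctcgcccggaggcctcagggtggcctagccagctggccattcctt
Stat3, a factor used by many cytokine receptors, was at 84.1, 72.2 and 75.9 CPM in BFU-E and 21.5, 26.4 and 23.6 CPM in CFU-E (-1.59 ± 0.08), with no overlap.

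DNA replication and mitosis genes rose together by modest amounts. Of 40 replication genes 38 rose and 1, the clamp loader subunit Rfc2, fell (-0.15 ± 0.04), and the median was 0.61. With library totals 37 rose and 2 fell. The origin licensing genes Cdc6 (1.06 ± 0.04), Orc1 (0.86 ± 0.07) and Orc2 (0.89 ± 0.03) and the checkpoint adaptor gene Clspn (1.08 ± 0.03) were among the 5 largest rises, and Clspn alone was called more than 2-fold. Of 36 genes of mitosis and cytokinesis 34 rose and none fell, also with library totals (31 and 0), led by Ccna2 (1.05 ± 0.03), Plk1 (0.94 ± 0.05) and Ccnb2 (0.90 ± 0.04). Of 57 replication-dependent histone genes 54 rose and none fell, although 1 fell with library totals. Hist3h2a went from 103 to 240 CPM (1.34 ± 0.04), and Hist2h2bb from 721, 676 and 685 CPM to 1369, 1362 and 1351 CPM. Near-identical histone genes can share reads, so single members of that family are uncertain.

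**Figure D3:**
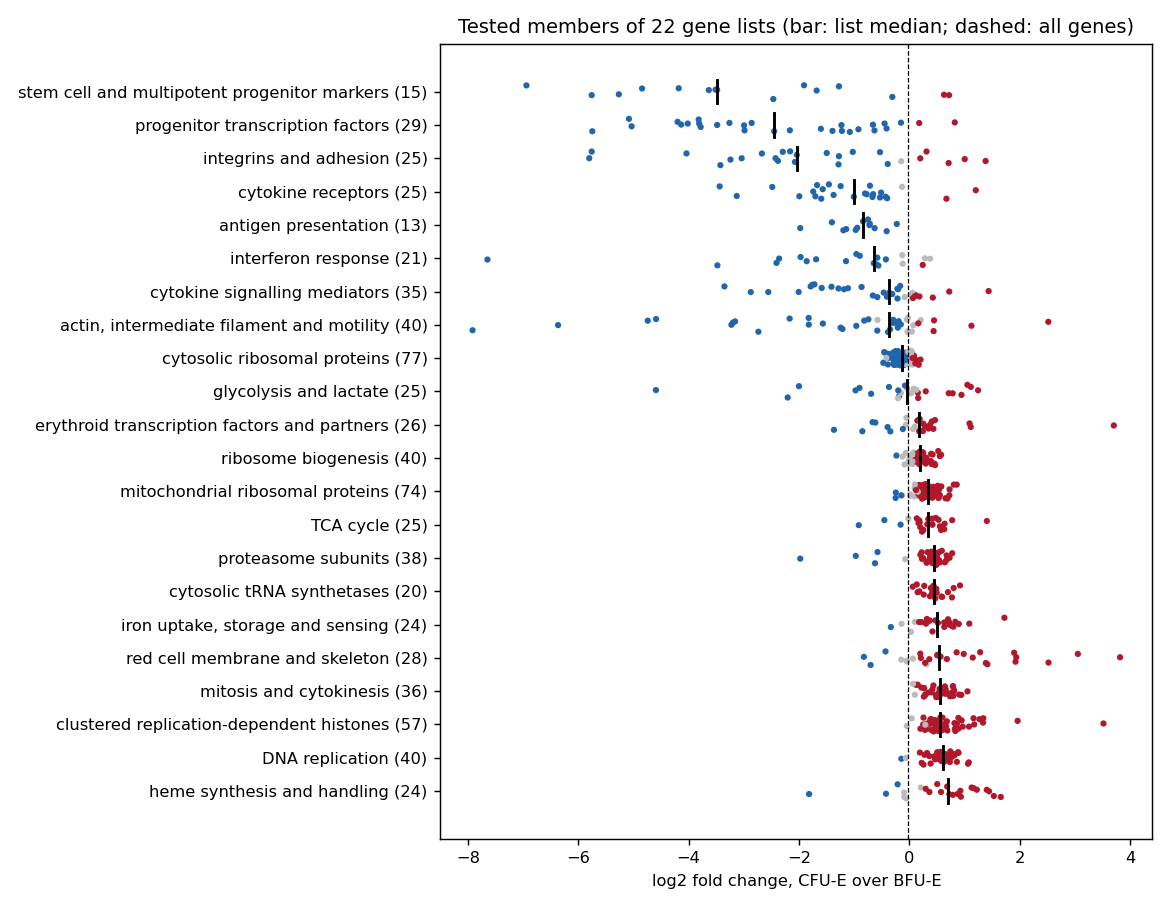
Log2 fold change (x axis) of the tested members of 22 gene lists (rows, number of tested members in brackets). Points are genes, red where higher, blue where lower at an adjusted p below 0.05 and grey where not called, the solid bar is the list median and the dashed line the median of all genes tested (-0.03); list medians run from -3.48 in stem cell markers to 0.70 in heme synthesis.

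Nucleotide supply and the G1 phase machinery changed in composition. Rrm2, the regulated subunit of ribonucleotide reductase, rose from 89.3, 84.8 and 82.8 CPM to 284, 289 and 280 CPM (1.84 ± 0.04), and the salvage kinase gene Dck from 41.0 to 88.2 CPM (1.2 ± 0.06), whereas Rrm2b, the subunit used outside S phase, fell by 0.45 ± 0.15. In all, 9 of 13 genes of this list rose and 4 fell. Of 20 G1 cyclins, kinases and E2F factors 12 rose and 3 fell (9 and 6 with library totals). Among them Ccne1 rose from 51.2, 54.5 and 52.7 CPM to 217, 216 and 221 CPM (2.15 ± 0.05) and Ccne2 by 1.54 ± 0.08. Ccnd2 fell from 329, 328 and 327 CPM to 104, 100 and 99.3 CPM (-1.59 ± 0.04), and its partner kinase gene Cdk6 by 0.82 ± 0.03. The libraries did not overlap in either direction for any of the 3 cyclins. Ccnd3, the D-type cyclin of terminal erythroid divisions, rose by 0.63 ± 0.07. Of 14 inhibitors of the cell cycle 5 rose and 6 fell, with Rb1 higher (0.88 ± 0.05) and Cdkn1b (-0.64 ± 0.08) and Ccng2 (-4.47 ± 0.28) lower. Among 28 genes of homologous recombination and the Fanconi pathway 19 rose and 2 fell, the largest rise being that of Rad51ap1 (1.01 ± 0.07).

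The E2F octamers TTTCCCGC, TTTGGCGC and TTTCGCGC, which can overlap each other, were found on either strand in 8 of 37 promoters of the replication list (21.62%) and in 3.082% of promoters of genes tested. Among genes called more than 2-fold higher the share was 1.869%, and among those called more than 2-fold lower 1.831%. In the nucleotide supply list 0 of 13 promoters had a match. The promoters of Orc1 at chr4:108579204-108579453 (+) and Mcm5, a subunit of the replicative helicase, at chr8:75109259-75109508 (+) show such matches in capitals. In Mcm5 a pair of matches on opposite strands overlap.
Orc1: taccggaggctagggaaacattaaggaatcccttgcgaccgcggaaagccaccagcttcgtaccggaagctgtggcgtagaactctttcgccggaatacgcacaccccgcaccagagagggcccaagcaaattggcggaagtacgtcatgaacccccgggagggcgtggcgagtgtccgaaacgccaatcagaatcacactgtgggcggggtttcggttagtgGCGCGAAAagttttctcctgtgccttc
Mcm5: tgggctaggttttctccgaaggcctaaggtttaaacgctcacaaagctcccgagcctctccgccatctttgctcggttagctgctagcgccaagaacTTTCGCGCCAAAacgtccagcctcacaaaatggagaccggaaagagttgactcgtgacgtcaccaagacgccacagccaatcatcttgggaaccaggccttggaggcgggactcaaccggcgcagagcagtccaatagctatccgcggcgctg
Orc1 was at 39.4, 38.5 and 41.5 CPM in BFU-E and 67.1, 66.6 and 68.3 CPM in CFU-E, and Mcm5 at 383, 361 and 380 CPM and 534, 548 and 508 CPM (0.61 ± 0.03). Both were higher in every CFU-E library.

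Heme, iron and membrane genes rose, but the genes of late hemoglobin synthesis were still near their floor. Of 24 heme genes 17 rose and 3 fell, with a median of 0.70. Uros (1.65 ± 0.10), Ppox (1.53 ± 0.12), Cpox (1.44 ± 0.03) and Fech (1.13 ± 0.04), all enzymes of the later steps of the pathway to heme, were called more than 2-fold higher. Cpox, for example, went from 259, 252 and 248 CPM to 626, 644 and 642 CPM, with every CFU-E library above every BFU-E library. The mitochondrial transporter genes Abcb6 (1.22 ± 0.07) and Tmem14c (1.16 ± 0.05) rose alike. Alas2, the erythroid enzyme of the first step, was at 3.18 ± 0.17 and 5.13 ± 0.36 CPM (0.79 ± 0.23), and its ubiquitous counterpart Alas1 at 40.3 and 35 CPM did not pass the test (-0.09 ± 0.08, or -0.20 with an adjusted p of 0.022 on library totals). Hmox1, which degrades heme, fell from 4.63 to 1.23 CPM (-1.82 ± 0.31). Of 3 tested globin genes Hba-a1 passed the test (4.22 ± 1.3 to 11.8 ± 1.5 CPM, 1.59 ± 0.18), while Hbb-b1 was at 5.86 ± 1.5 and 7.33 ± 0.83 CPM (0.38 ± 0.19, adjusted p = 0.063, and 0.61 with an adjusted p of 0.011 without BFU-E library 3). Globin gene copies are near-identical and can share reads, and traces of RNA from later erythroid cells or red cells were not tested as a source of these low levels. In the fit over 3 sources of cells described below, neither Hba-a1 nor Alas2 passed the test (adjusted p = 0.256 and 0.239). GS-KO is among those sources, and there both genes went down (-0.38 ± 0.04 and -0.19 ± 0.06). In the stage series their values were above 0 without a call (1.51 ± 0.56 and 0.67 ± 0.32).

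Iron genes pointed the same way, with 20 of 24 higher, 1 lower and a median of 0.49. Tfrc, the transferrin receptor through which erythroid cells take up iron, rose from 300, 296 and 300 CPM to 910, 928 and 906 CPM (1.72 ± 0.03). The ferritin heavy chain gene Fth1 (584 to 1152 CPM, 1.08 ± 0.02), the exporter gene Slc40a1 (0.83 ± 0.04) and Glrx5, which acts in iron-sulfur cluster assembly (0.89 ± 0.04), also rose. Ncoa4, which delivers ferritin for degradation, was the member that fell (-0.34 ± 0.09). Of 28 membrane and skeleton genes 20 rose, 10 of them by more than 2-fold, and 3 fell, with a median of 0.54. Beside Sptb and Dmtn the large rises were of Epb4.2 (2.52 ± 0.17), Add2 (1.94 ± 0.03), Rhd (1.92 ± 0.05) and Rhag (1.90 ± 0.05), the last from 63.2, 56.6 and 55.7 CPM to 201, 203 and 198 CPM. The adducin genes differed from each other: Add2, the erythroid form, rose from 113 to 403 CPM, Add1 fell by 0.43 ± 0.03 and Add3 by 0.83 ± 0.05. Slc4a1, the anion exchanger of the mature cell, was at 3.99 ± 1.1 and 4.63 ± 0.76 CPM and did not pass the test. Ermap, an erythroid adhesion protein, rose by 0.51 ± 0.02. Of 13 carbonic anhydrases and other erythroid enzymes 10 rose and 2 fell. Car1, another carbonic anhydrase, was almost level (1890.3 ± 44 and 1948 ± 53 CPM, 0.15 ± 0.02), and its call was lost in the fit over 3 sources (adjusted p = 0.111).

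In glycolysis some isoenzymes rose and others fell, while mitochondrial genes rose broadly. Of 25 genes of glycolysis and lactate 9 rose and 10 fell (7 and 12 with library totals). These counts are close to the shares over all genes tested (34.5% higher and 36.0% lower). Pklr, the pyruvate kinase of red cells and liver, rose from 141, 137 and 133 CPM to 303, 294 and 306 CPM (1.24 ± 0.03), and Pkm, the form of most proliferating cells, fell from 18.9, 22.2 and 21.9 CPM to 0.602, 0.843 and 0.96 CPM (-4.59 ± 0.22). Neither gene showed overlap between the groups. Hk2 (-2.0 ± 0.15), Pfkfb3 (-2.21 ± 0.13) and Pfkp (-0.91 ± 0.10) fell, whereas Pfkm (0.94 ± 0.04), Pfkfb4 (1.11 ± 0.21) and Ldhb (1.05 ± 0.17) rose. Of 25 tricarboxylic acid cycle genes 21 rose and 3 fell, with a median of 0.34. The largest rise was of Pcx, which makes oxaloacetate from pyruvate (1.40 ± 0.12), and the largest falls were of Idh1 (-0.92 ± 0.13) and Idh2 (-0.45 ± 0.04). Of 76 nuclear genes of the respiratory chain 62 rose and 3 fell, and of 74 mitochondrial ribosomal protein genes 64 rose and 3 fell, with medians of 0.32 and 0.33 and no member beyond 2-fold among the latter. Transcripts of mitochondrial DNA were not analysed here.

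Amino acid metabolism showed a few larger changes. GS is taken here as glutamine synthetase, encoded by Glul, and Glul itself was at 121, 125 and 120 CPM in WT BFU-E and 89.7, 84.2 and 84.2 CPM in WT CFU-E (-0.40 ± 0.05), a call lost in the fit over 3 sources (adjusted p = 0.058). GS-KO is among those sources, so for this gene that fit is no check on the WT value. On its own, the step of Glul was -1.35 ± 0.07 in GS-KO and -0.05 ± 0.11 in the stage series. Of 26 genes of glutamine and glutamate enzymes 16 rose and 4 fell. Gls2, a glutaminase, rose from 2.22, 2.18 and 2.45 CPM to 10.2, 11 and 9.24 CPM (2.24 ± 0.21). Asns, which makes asparagine from glutamine, rose from 128, 140 and 126 CPM to 308, 307 and 315 CPM (1.35 ± 0.03). Glud1, the glutamate dehydrogenase (-0.68 ± 0.05), and Prodh, the first enzyme of proline breakdown (-2.08 ± 0.11), fell. In folate metabolism the mitochondrial Mthfd2 (1.32 ± 0.08) rose and the cytosolic Shmt1 (-1.66 ± 0.10) fell, with 11 of 18 members higher and 3 lower. Of 17 genes of the integrated stress response 7 rose and 4 fell, and Atf4, its central factor, rose by 0.35 ± 0.04 against a fall of 1.31 ± 0.19 in Ddit4.

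Protein synthesis genes rose by small amounts, with cytosolic ribosomal proteins as the exception. All 20 cytosolic tRNA synthetase genes rose (median 0.45), from Hars (0.92 ± 0.03) and Aars (0.80 ± 0.03) to Vars (0.06 ± 0.03), and 17 of 20 did so with library totals. The call of Vars was also lost without BFU-E library 3 or CFU-E library 3 (0.04 in both, adjusted p = 0.242 and 0.225). Of 32 translation factors 26 rose and 2 fell (22 and 5 with library totals), and of 40 ribosome biogenesis genes 29 rose and 1 fell, the latter 21 and 6 with library totals. Chaperone genes rose in 20 of 26 cases, for example Hspd1, the mitochondrial chaperonin (639 to 1039 CPM, 0.81 ± 0.02), whereas the inducible Hspa1a (-1.30 ± 0.34) and Hspa1b (-1.11 ± 0.24) fell. Among 77 cytosolic ribosomal protein genes 51 fell and 7 rose, with values from -0.47 to 0.20 and a median of -0.14. In the fit over 3 sources 13 fell and 3 rose. The median in the stage series was 0.80 with all 5 CFU-E libraries and -0.08 with replicates 1 to 3 (16 higher and 38 lower of 76), since replicates 4 and 5 stood apart as described below. Many of these genes have processed pseudogenes that can share reads.

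The proteasome showed a similar split among its subunits. Of 38 tested subunit genes 33 rose and 4 fell, with a median of 0.44. Psmc6 (0.73 ± 0.04), Psmd9 (0.77 ± 0.08) and Psmc1 (0.67 ± 0.03) of the regulatory particle and its assembly were the largest rises. The 4 that fell were the catalytic subunits induced by interferon, Psmb8 (-1.98 ± 0.05), Psmb9 (-0.97 ± 0.11) and Psmb10 (-0.62 ± 0.09), and the testis-enriched Psma8 (-0.58 ± 0.19). Psmb8 was at 169, 177 and 159 CPM in BFU-E and 39.0, 42.5 and 37.7 CPM in CFU-E, with no overlap. All 13 tested antigen presentation genes fell (median -0.84), including the class I heavy chain gene H2-K1 (579, 591 and 567 CPM to 256, 248 and 226 CPM, -1.15 ± 0.03) and B2m (762 to 429 CPM, -0.72 ± 0.03). Class I genes resemble each other and can share reads. Of 21 interferon response genes 15 fell and 1, Ifit2, rose (0.24 ± 0.09), a call lost without BFU-E library 3 (0.20, adjusted p = 0.069) or CFU-E library 1 (0.19, adjusted p = 0.095) and with library totals (0.13, adjusted p = 0.163). Zbp1, a sensor of nucleic acids, fell by 3.48 ± 0.46.

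Adhesion and motility genes fell, with a few that rose. Of 25 integrin and adhesion genes 19 fell, 15 of them by more than 2-fold, and 5 rose, with a median of -2.04. The leukocyte integrin gene Itgal (-5.80 ± 0.20), the endothelial and stem cell antigen gene Pecam1 (-4.04 ± 0.19) and the stem cell antigen gene Slamf1 (-5.76 ± 0.17) fell, and Itga4, whose product binds fibronectin and VCAM1 on stromal cells, fell by 0.53 ± 0.02. Itga5 (1.0 ± 0.05) and Itgb1 (0.71 ± 0.03), which form the classical fibronectin receptor, rose, as did the tetraspanin gene Cd82 (58.8 to 142 CPM, 1.38 ± 0.05). Its relative Cd9 fell by 3.24 ± 0.32. Of 40 genes of actin, intermediate filaments and motility 27 fell and 5 rose. The actin regulator gene Coro1a (-4.59 ± 0.19), the myosin gene Myo1g (-4.74 ± 0.25) and Dock2, an activator of the RAC GTPases (382 to 38.2 CPM, -3.23 ± 0.04), fell, whereas Lmna, which encodes the nuclear lamins A and C, rose from 29.1, 31.0 and 30.6 CPM to 161, 166 and 158 CPM (2.52 ± 0.06), and Vcl, which links integrins to actin, by 1.12 ± 0.04. In the BCL2 family 5 of 12 rose and 5 fell, against 34.5% and 36.0% over all genes tested. The death inhibitor gene Bcl2 fell from 29.9, 27.9 and 29.2 CPM to 0.722, 1.41 and 2.40 CPM (-4.14 ± 0.18), and the death activator gene Bcl2l11 rose from 25.4 to 67.9 CPM (1.52 ± 0.08).

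Markers of other lineages that remained in BFU-E were lower in CFU-E. Of 15 tested markers of stem and multipotent cells 13 fell and 2 rose (median -3.48), with Slamf1 at 49.3, 49.2 and 50.9 CPM in BFU-E and 0.722, 1.12 and 0.72 CPM in CFU-E. Txnip, an inhibitor of thioredoxin, fell from 328 to 55.1 CPM (-2.47 ± 0.04) and the cytokine gene Angpt1 from 115 to 9.31 CPM (-3.51 ± 0.08), whereas Mllt3 rose by 0.72 ± 0.05. Of 13 megakaryocyte markers 11 fell and none rose, with the thrombin receptor gene F2r at 134 and 15.4 CPM (-3.01 ± 0.07) and Itga2b at 22.6 and 1.96 CPM (-3.43 ± 0.18). All 6 tested markers of mast cells, basophils and eosinophils fell, among them Srgn (204 to 97.2 CPM, -0.97 ± 0.04) and the interleukin 33 receptor gene Il1rl1 (174 to 102 CPM, -0.67 ± 0.04). Neutrophil granule genes stood apart: Ngp, S100a8, S100a9 and Ltf were each between 1.64 and 5.76 CPM in both groups, and these 4 of 8 tested markers were called higher and 2 lower (3 and 3 of 8 with library totals). None of the 4 was called in the fit over 3 sources, where their values were below 0. GS-KO is among those sources, and its neutrophil markers summed to 6739 to 6800 CPM in BFU-E and 4138 to 4209 CPM in CFU-E. All 4 were below 0 in GS-KO on its own and, without a call, in the stage series. S100a8, S100a9 and Ltf lost the call without BFU-E library 2 (adjusted p = 0.080, 0.117 and 0.304) or CFU-E library 1 (0.10, 0.084 and 0.056), S100a8 also without BFU-E library 3 (0.072), and S100a9 and Ltf also without CFU-E library 3 (0.070 and 0.227). Of 6 monocyte, macrophage and dendritic cell markers 5 fell and none rose. In the T and NK cell list 1 marker could be tested, and no B cell marker passed the filter on low counts.

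**Figure D4:**
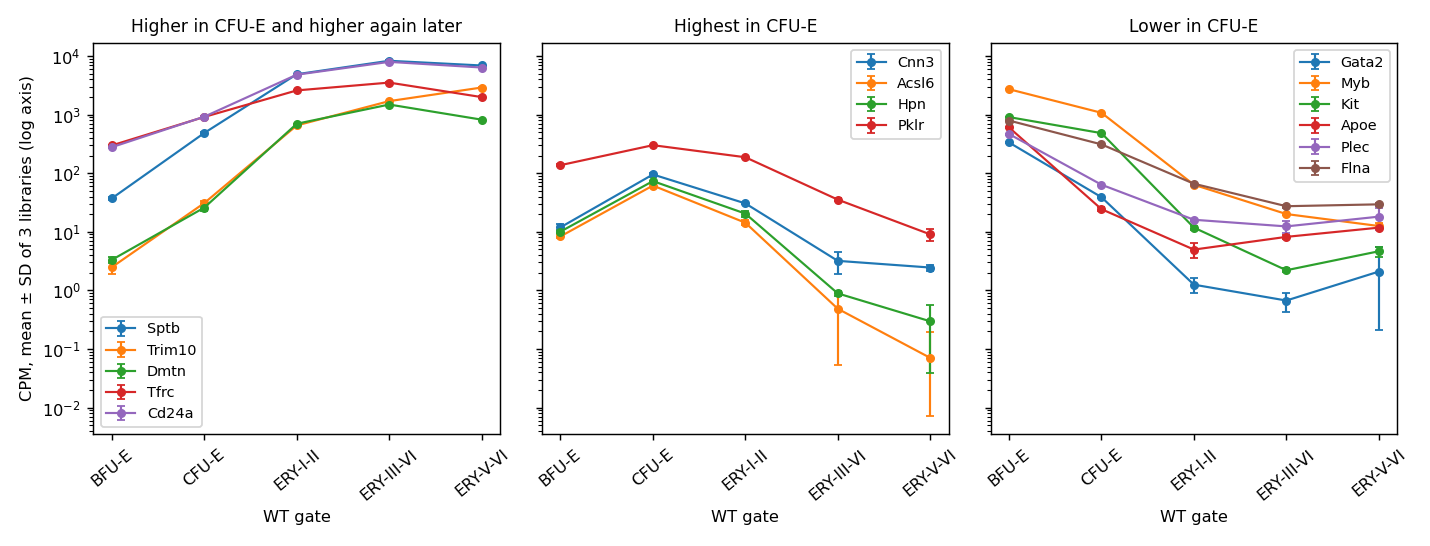
Level in CPM (y axis, log scale, mean ± SD of 3 libraries) of named genes in the 5 WT gates of the same set of libraries (x axis, from BFU-E on the left to the most mature gate on the right; lower error bars that would reach 0 are cut short). Sptb, Trim10 and Dmtn keep climbing from CFU-E to ERY-III-VI, Cnn3, Acsl6, Hpn and Pklr are highest in CFU-E, and Gata2, Myb and Kit keep dropping towards ERY-III-VI.

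Levels in the 3 later WT gates, given as a description with no test, separated the genes that rose. Sptb went on from 487 ± 14 CPM in CFU-E to 4896 ± 14 CPM in ERY-I-II and 8309 ± 98 CPM in ERY-III-VI, and Trim10 from 31.0 ± 3.0 to 654 ± 4.4 and 1702 ± 26 CPM. Others were highest in CFU-E of the 5 gates: Acsl6 went from 8.35 ± 0.66 CPM in BFU-E to 61.6 ± 2.8 CPM in CFU-E and back to 14.3 ± 1.4 CPM in ERY-I-II, Hpn from 10.1 ± 0.71 to 73.4 ± 1.4 and 20.5 ± 2.5 CPM, Cnn3 from 11.9 ± 1.5 to 95.2 ± 7.6 and 30.5 ± 0.97 CPM, and Pklr from 137 ± 4.0 to 301 ± 5.8 and 187 ± 4.5 CPM. The late genes that were near their floor in both progenitors rose after them, Hbb-b1 to 6213.5 ± 45 CPM and Slc4a1 to 6709.6 ± 28 CPM in ERY-I-II. Gata1, without a call between the progenitors, was at 277 ± 3.3 CPM in ERY-I-II. Malat1, among the largest losses in CPM, was higher again in ERY-I-II, at 6352 CPM. Shares of total counts in the later gates move with the globin transcripts, so these levels are not free of composition.

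The same step was measured in 2 other sources of cells. In the stage series (3 BFU-E and 5 CFU-E libraries, labelled by stage only) 1964 genes were higher and 2067 lower (37.3% together), 154 and 595 by more than 2-fold (6.93%). Its 5 CFU-E libraries did not form one group: replicates 4 and 5 differed from replicates 1 to 3 by far more than those differed among themselves (chi-square per degree of freedom 102 to 127 against 1.46 to 1.70). With replicates 1 to 3 alone, an alternative added after seeing the data, 3570 genes were higher and 3734 lower, 226 and 922 by more than 2-fold. In the libraries labelled GS-KO the counts were 3578 and 3447 (62.0%), with 85 and 364 by more than 2-fold (3.96%). Of the genes called more than 2-fold in WT, 1096 were tested in the stage series, where 1034 were called with the same sign, none with the opposite sign and 62 not at all. With replicates 1 to 3 the counts were 1098, 1 (Dlg3) and 3 of 1102. In GS-KO 1114 of 1141 were called with the same sign, 25 were not called and 2 had the opposite sign, 4632428N05Rik and Hba-a1 (-0.38 ± 0.04 in GS-KO). Over genes called more than 2-fold higher in WT the median log2 fold change was 1.81 in WT, 2.13 in the stage series and 1.18 in GS-KO, and over those called more than 2-fold lower it was -2.43, -2.36 and -1.30. With replicates 1 to 3 the stage series medians were 1.90 and -2.22. When the libraries of each group were summed, with replicates 1 to 3 of the stage series, and the 3 sources were fitted with source as a block, 3351 genes were higher (27.5%) and 3585 lower (29.5%) of 12165. Of the 7632 WT calls, 7631 were in that fit, 6326 were called there with the same sign, none with the opposite sign and 1305 were not called. Of the 1170 calls of more than 2-fold, 1143 were called with the same sign, again none with the opposite one. Among genes named here, besides those given above, the calls of Ccnd3, Cebpb, Gda, Hspa1a, Hspa1b, Ifit2, Igj, Pfkfb4, Psma8 and Rap1gap were lost in that fit (adjusted p from 0.056 for Gda to 0.467 for Psma8). The WT libraries are part of that fit, so it is no independent repeat.

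The step was smaller in GS-KO for many of the genes that fell most in WT. A test of the difference (GS-KO step minus WT step, more than 2-fold) called 219 of 11641 genes (1.88%; 1716 or 14.7% when tested against 0), 189 with a higher and 30 with a lower value in GS-KO. The median difference over all genes tested was 0.08, but 0.0008 without GS-KO CFU-E library 2 and -0.003 without library 3. That pair differed by a chi-square per degree of freedom of 5.12, against 2.05 and 2.07 for the other pairs of GS-KO CFU-E libraries. Vim differed by 5.98 ± 0.14 on the log2 scale: it fell from 256 to 0.962 CPM in WT and from 316 to 75.7 CPM in GS-KO. Rin3 (5.40 ± 0.26), Igj (5.23 ± 0.28) and Rab44 (5.11 ± 0.31) differed in the same way. The other 2 of the 6 largest differences had 3 or fewer counts in WT CFU-E and are given no fold. In the other direction Sec14l2 (-3.37 ± 0.30), Trim10 (-3.04 ± 0.19), Gda, a guanine deaminase (-2.69 ± 0.15), and Dmtn (-2.59 ± 0.18) had lower log2 fold changes in GS-KO, Trim10 going from 30.3 to 44.0 CPM there against 2.5 to 31.0 CPM in WT. Prg4 (-6.43 ± 0.63) and Lcn2 (-2.57 ± 0.52) completed the 6 largest, both near or below 1 CPM in WT. The neutrophil markers given above for WT summed to 6739 to 6800 CPM in GS-KO BFU-E and 4138 to 4209 CPM in GS-KO CFU-E, the monocyte and macrophage markers to 392 to 405 and 232 to 244 CPM, and 6 late erythroid markers to 1041 to 1078 and 860 to 899 CPM against 45.2 to 50.4 and 108 to 121 CPM in WT. Their part in the result was not tested. Glul, the gene taken as the target, was at 96.1 to 101 CPM in GS-KO BFU-E and 34.7 to 37.5 CPM in GS-KO CFU-E, so it was detected in all 6 libraries labelled GS-KO.

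The WT step and that of the stage series differed by more than 2-fold in 1 of 11285 genes (0.00886%), Rap1gap, which rose from 4.35 to 29.3 CPM in WT and was at 1.62 and 0.584 CPM in the stage series (difference -4.15 ± 0.45). No gene was called without any one of stage BFU-E library 1, stage CFU-E library 1, WT BFU-E library 1 or 3, or WT CFU-E library 1, 2 or 3. Tested against 0, the difference was called in 2 genes (0.0177%). With replicates 1 to 3 alone of the stage series 6 genes were called by the 2-fold test. In data simulated for the fit with all 5 stage CFU-E libraries, a 4-fold difference (log2 of 2) passed the 2-fold test in 52.1% of cases. Differences of this size can therefore be missed in that fit. No simulation was run for replicates 1 to 3 alone.

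**Figure D5:**
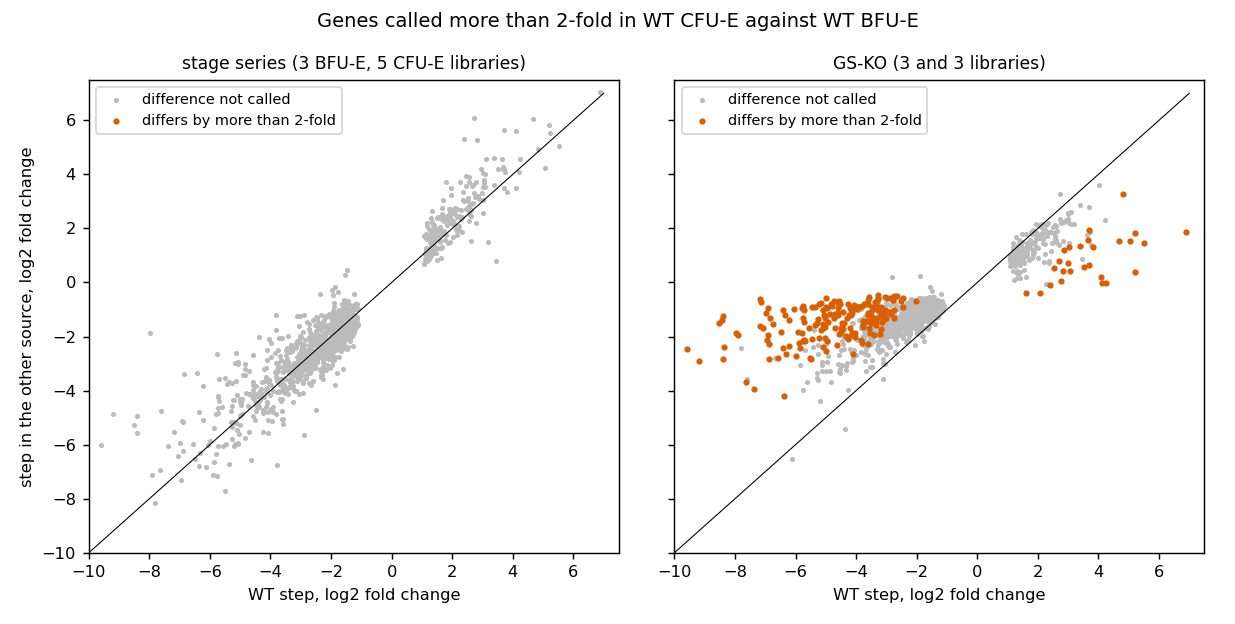
Log2 fold change of CFU-E over BFU-E in the stage series (left, y axis) and in GS-KO (right, y axis) against that in WT (x axis), for genes called more than 2-fold in WT. Grey points are genes whose difference from WT was not called, orange points those that differ by more than 2-fold, and the line marks equal values; in GS-KO many genes that fell steeply in WT lie above the line.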

How the data were processed

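Total RNA was sequenced from flow-enriched mouse bone marrow cells with a stranded low-input kit, per the labels' protocols. The authors deposited raw read counts per gene symbol, made with STAR 2.5.2b and HTSeq on mm10, per the submitters' processing notes. The stage series and the set with WT and GS-KO came in separate tables of counts. Which gene annotation and strand setting the counting used was not stated in the sources used here. The 3 WT BFU-E and 3 WT CFU-E libraries were identified by their column names, which match the sample titles, and 0 columns lacked a sample.

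From these counts, genes were kept by edgeR's filterByExpr (minimum count 10, minimum total 15), scaled by TMM and tested in edgeR 4.0.16 (R 4.3.3) with the quasi-likelihood F test, with Benjamini-Hochberg adjustment over all genes tested and a threshold of 0.05. The glmTreat test used a fold of 2. Differences between the steps of 2 sources were interaction terms in a fit of the 4 groups concerned. Standard errors were derived from the test, as the absolute log2 fold change divided by the square root of the F statistic. For genes with few counts in either group they can understate the counting noise. SDs are over libraries. Alternatives used DESeq2 1.42.0, limma-voom (limma 3.58.1), other scalings and filters, a replicate block, a fit on 30 libraries, a sum over libraries with 3 sources as a block, and each library left out in turn. The 2-fold count from the summed libraries and the stage series without CFU-E replicates 4 and 5, in its own fit, were added after seeing the data.

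In data simulated from these libraries with 10738 genes, a change of log2 1 was found in 99.1% and of log2 2 in 100% of changed genes in the WT comparison, and 5.69% of calls were false. In the GS-KO difference (11386 genes) the shares were 90.2% and 100%, and in the stage series difference (11081 genes) 34.6% and 95.8%, all in the test against 0. Each simulation gave all genes the same dispersion and planted changes only in genes above a minimum mean count. The shares therefore do not cover genes with few counts, nor genes near their floor in either population.

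The 53 gene lists and the landmark genes were chosen with earlier results of these data known. Named genes are landmarks, the 12 highest and 12 lowest fold changes called more than 2-fold at 20 CPM or more, the 6 largest gains and 6 largest losses in CPM among those, members of short lists, the 5 largest rises and falls and the uncalled members of longer lists, and the 6 largest differences in each direction between sources. Cxcr4, Dlg3, 4632428N05Rik, Fech, Itga4, Jak2, Mcm5, Rhag, Stat3, Stat5a, Tgfbr1, Tgfbr3, Tmem14c, Vars and the lipid enzymes of the closing section were chosen after their values were seen. Promoters are RefSeq sequences of GRCm38.p6, matched by symbol. Some genes that the rule names are not reported here.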

Additional observations from a re-analysis of the deposited data

Results flagged for a closer look

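The test of the difference between the GS-KO step and the WT step called 219 genes. Of the genes named in the report, those with a higher log2 fold change in GS-KO than in WT had differences of 5.98 (Vim), 5.40 (Rin3), 5.23 (Igj), 5.11 (Rab44), 4.85 (Gpr97), 4.67 (Plac8), 4.09 (Abcg1), 4.01 (Ifitm1), 3.97 (Itgal), 3.86 (Pkm), 3.69 (Med12l), 3.67 (Coro1a), 3.45 (Myo1g), 3.45 (Rab37), 3.30 (Nynrin), 3.05 (Spi1), 2.84 (Ccng2), 2.72 (Meis1), 2.54 (Runx2), 2.29 (Bcl2), 2.26 (Cd9), 2.26 (Fli1), 2.20 (Scin), 2.05 (Pecam1), 1.99 (Tnfrsf1a), 1.82 (Plcg2) and 1.36 (Dock2). All of these fell in WT, so their fall was smaller in GS-KO.

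Those with a lower log2 fold change in GS-KO had differences of -6.43 (Prg4), -3.37 (Sec14l2), -3.04 (Trim10), -2.69 (Gda), -2.59 (Dmtn), -2.57 (Lcn2), -2.48 (Sptb), -1.96 (Epb4.2), -1.95 (Hba-a1), -1.70 (Pkhd1l1), -1.70 (Sh3tc2) and -1.53 (Tmem56). The part of the neutrophil, monocyte and late erythroid markers, whose levels stand beside this comparison in the report, was not tested. In the test of the stage series against WT the 1 gene called was Rap1gap, with a difference of -4.15. The groups of 3 libraries were too small to test for a lone distant library.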

How the results depend on the processing

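The count of genes called in WT CFU-E against WT BFU-E (7632) stayed within 1.5 times under every alternative run: 7640 with RLE size factors, 7643 with library totals, 8095 of 16450 with no filter, 6648 of 9199 at a mean of 5 CPM, 6679 with DESeq2, 7617 with limma-voom, 6036 in one fit on 30 libraries, 6936 over 3 sources and 7271 to 7473 with 1 library left out. The count of changes over 2-fold (1170) was 1241 with library totals (180 higher, 1061 lower) and 1149 to 1188 with 1 library left out. It was 739 at a mean of 5 CPM (156 and 583), where fewer genes were tested, and 491 over 3 sources (101 and 390), where 3 sums replaced the replicates. The GS-KO difference (219 genes) was 1716 when tested against 0 and 169 to 225 with 1 library left out. The stage series difference (1 gene) was 2 when tested against 0, 6 with replicates 1 to 3, and 0 to 2 with 1 library left out, with 2 genes without stage CFU-E library 3 or 5. The cause was not tested.

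Same-numbered BFU-E and CFU-E libraries did not deviate together (correlations 0.09, 0.05 and -0.02 over 6862 genes), so the numbers were not taken as pairs. Not every library correlated best with its own number. With a replicate block 7678 genes were called, 1168 over 2-fold by glmTreat, and the GS-KO difference had 213 genes. The stage series difference had 8 with the block on replicates 1 to 3 of each group, against 6 on those libraries without it.

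Of 209 named genes tested, the log2 fold changes gave 3063 values on the same side of the threshold over all alternatives, 41 that lost a call, 8 that gained one and 5 that changed sign. The sign changes were Vars (-0.046) with library totals and Ltf (-0.49), Ngp (-0.53), S100a8 (-0.45) and S100a9 (-0.41) over 3 sources. The fit on 30 libraries lost 6 calls, among them Rfc2, Rrm2b and Stat5a, and DESeq2 lost 5. Depth limits genes near 1 CPM, which had about 10 counts or fewer in a library.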

Other observations

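Several enzymes of phospholipid and sphingolipid metabolism were among the genes called more than 2-fold higher in CFU-E. They were picked after their values were seen, and no list of lipid enzymes was counted. The lysophospholipid acyltransferase genes Lpcat1 (12.8 to 56.0 CPM, 2.24 ± 0.09), Agpat3 (20.4 to 75.6 CPM, 1.97 ± 0.08) and Mboat2 (29.5 to 97.2 CPM, 1.80 ± 0.07) rose, as did the monoglyceride lipase gene Mgll (2.16 ± 0.12) and the phospholipase gene Pla2g4c (2.32 ± 0.12). Sphk1, which makes sphingosine 1-phosphate (86.5 to 225 CPM, 1.48 ± 0.04), and Sgpl1, which degrades it (2.02 ± 0.11), rose together.

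The remaining gene lists were more mixed, beside 34.5% higher and 36.0% lower over all genes tested. Of 45 chromatin and DNA methylation regulators 18 rose and 21 fell. Hmgb3 (0.68 ± 0.03), the maintenance methylation factor gene Uhrf1 (0.64 ± 0.03) and the polycomb subunit gene Suz12 (0.49 ± 0.03) were higher, while the remodeller ATPase gene Smarca2 (126 to 33.2 CPM, -1.81 ± 0.06) and Hmga2 (-1.89 ± 0.35) were lower. Of 12 immediate early genes 7 fell and 1 rose, with Egr1 at 25.5 and 1.84 CPM (-3.67 ± 0.17) and Fosl2 lower by -2.48 ± 0.31 on the log2 scale. Of 28 lysosome genes 14 fell and 7 rose, with Laptm5 (-2.91 ± 0.06) and Ctsc (-2.25 ± 0.16) lower and the cathepsin B gene Ctsb higher (0.94 ± 0.05). Of 30 autophagy and mitophagy genes 11 fell and 7 rose (18 and 5 with library totals). Of 26 antioxidant genes 18 rose and 4 fell, and Prdx2, the abundant peroxiredoxin of red cells, went from 258 to 553 CPM (1.21 ± 0.03), with Txnrd2 at 1.0 ± 0.07. Of 21 amino acid transporters 12 rose and 6 fell, led by the mitochondrial aspartate and glutamate carrier gene Slc25a12 (1.03 ± 0.07) and the glutamine transporter gene Slc38a5 (0.87 ± 0.05), against Slc43a2 (-2.40 ± 0.28). Among 25 enzymes that make purines and pyrimidines, 17 were higher and 5 lower, and of 11 polyamine genes 4 rose and 2 fell (3 and 3 with library totals). Of 26 cholesterol synthesis genes 14 rose and 4 fell (13 and 6 with library totals), with Sqle at 0.73 ± 0.08. Of 10 imprinted genes and noncoding RNAs 5 fell and 1 rose.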
